A study of Mus musculus with 12 samples.

Results

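Transcripts of 10 heat shock chaperone genes were followed in the spinal cord of mice with a conditional loss of Ddx20 (cKO) and of control mice. The genes were chosen by symbol: Hspa1a, Hspa1b, Hspa8, Hsp90aa1, Hsp90ab1, Hsph1, Dnajb1, Hspb1, Hspd1 and Bag3, which are 10 of the 56953 genes in the deposited tables. All 10 were among the 19278 genes that passed the filter on low counts and were tested. The product of Hspd1 works in mitochondria, and the other 9 products work mainly in the cytosol.

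Whole spinal cord mRNA was sequenced from 12 animals in 4 groups of 3, namely control and Ddx20 cKO mice at 4 weeks and control and Ddx20 cKO mice at 4.5 weeks after tamoxifen. The cKO mice carried Ddx20flox/flox alleles and the Plp-CreER transgene, whose promoter is active mainly in the oligodendrocyte lineage and in Schwann cells, which limits the deletion mainly to those lineages. The labels name the comparison animals only as control, and do not say which alleles or transgenes they carried. Age, strain and sex are not given in the sources used here.

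Heat shock chaperones bind unfolded proteins and help them to fold or to be degraded. Hsp70 proteins bind short exposed stretches with the help of J-proteins, which start their ATP cycle, and of nucleotide exchange factors, which end it; Hsp90 proteins act later, on nearly folded clients such as kinases and steroid receptors, and small heat shock proteins hold unfolded proteins without using ATP. Under protein stress, heat shock factor 1 (Hsf1) binds alternating inverted GAA units, called heat shock elements, in the promoters of many of these genes. Some members, such as Hspa8 and Hsp90ab1, are transcribed at high level without stress, and neurons are known for high levels of several of them, while Hspb1 is known in reactive astrocytes, in vessels and in injured motor and sensory neurons.

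RefSeq promoter windows of 300 bases (250 before and 50 after an annotated start, GRCm38.p6) were matched by symbol for 7 of the 10 genes. The genes with no window were Hspa8, Hsp90aa1 and Hsp90ab1. The counts themselves were made on another build, mm39. A pair of inverted units, GAANNTTC or TTCNNGAA (both read the same on either strand), was found in at least 1 window of 6 of the 7 genes, against 17.0% of the 27025 genes and 15.1% of the 32851 windows in the table. The members were picked as chaperones controlled by Hsf1, so a share above that of the table cannot be read as a result. Dnajb1 had no match in its windows, and the match of Bag3 lay after the start. A run of 3 alternating units, which contains overlapping pairs, was found in Hspd1 before the start and in Hsph1 after it, against 0.662% of genes; the Hsph1 run is not in the stretch shown. The stretches below are those of the 5 genes with a match before an annotated start, of which Hspb1 rose, Hsph1 and Hspd1 fell, and Hspa1a and Hspa1b were called at neither time; capitals mark the GAA units and their reverse, TTC.
Hspa1a and Hspa1b, chr17:34972227-34972286 and chr17:34959309-34959368, minus strand: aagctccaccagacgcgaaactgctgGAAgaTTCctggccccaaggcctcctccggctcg
Hspb1, chr5:135887776-135887835, plus strand: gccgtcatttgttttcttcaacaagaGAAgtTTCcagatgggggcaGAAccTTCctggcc
Hsph1, chr5:149636337-149636395, minus strand: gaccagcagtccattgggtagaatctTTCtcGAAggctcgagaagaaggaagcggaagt
Hspd1, chr1:55088043-55088102, minus strand: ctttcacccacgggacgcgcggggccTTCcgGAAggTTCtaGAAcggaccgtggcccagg
The Hspa1a and Hspa1b stretches are letter for letter the same, and their first unit starts 104 bases before the start. Over the whole window these copies were identical at 296 of 300 positions and differed by C44T, T47C, T249G and C276T, with the Hspa1a base first and positions counted from 1 at the 5′ end of the window. In Hspb1 a first pair started 117 bases and a second pair 97 bases before the start. The Hspd1 run lay between that gene's annotated starts, 144 bases before the downstream one. These matches describe letters, and binding of Hsf1 was not measured.

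The libraries held between 33104560 and 47677267 counts. Transcript of the targeted gene, Ddx20, was 11, 9.78 and 11.1 CPM (scaled counts per 1000000 counts of the library) in the controls at 4 weeks and 10.2, 11.1 and 9.9 CPM in the cKO-labelled libraries. At 4.5 weeks it was 9.16, 10.6 and 9.71 CPM in the controls and 12.4, 11.1 and 13.3 CPM in the cKO-labelled libraries (log2 fold change 0.33, adjusted p = 0.013 by edgeR), so the level of this transcript goes against the label; counts per gene do not show a deleted exon. The 8 oligodendrocyte markers, in contrast, were all lower in the cKO-labelled libraries at both times, and their summed level was 13800 to 18800 CPM against 32200 to 34800 at 4 weeks and 10200 to 11100 against 29400 to 29900 at 4.5 weeks. By Xist, the controls at 4 weeks were male, of the cKO-labelled libraries at 4 weeks numbers 1 and 2 were female and number 3 was male, and all libraries of 4.5 weeks were female. Muscle transcripts were high in control library 2 of 4.5 weeks (summed level 150 CPM, at most 37 in the others). Sensory ganglion transcripts were high in control library 1 of 4.5 weeks (100 CPM, at most 30.3 in the others). Schwann cell transcripts were 254 CPM in that library and 9.47 and 9.49 CPM in the other controls of that time, and 71.5 to 158 CPM in the controls against 8.88 to 53.5 CPM in the cKO-labelled libraries at 4 weeks.

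The members spanned a wide range of levels in the cord. Per kilobase of annotated exon, the order in the controls at 4 weeks was Hspa8 (1050 CPM per kb), Hsp90ab1 (641), Hsp90aa1 (444), Hspd1 (82.6), Hsph1 (68.9), Hspb1 (51.7), Bag3 (22.1), Dnajb1 (16.9), Hspa1a (6.76) and Hspa1b (4.98). The ranges of 3 pairs of neighbours in that order overlapped, namely Hspd1 and Hsph1, Bag3 and Dnajb1, and Hspa1a and Hspa1b; the others did not. The raw counts behind these values ran from 171 to 965 per library for Hspa1b and from 53329 to 107364 for Hspa8. In the cKO-labelled libraries at 4.5 weeks Hspb1, at 242 CPM per kb, stood above Hsp90aa1, at 176 CPM per kb, and their ranges of 229 to 257 and 170 to 187 did not overlap. Levels below are in CPM, not per length. The Hsp90 ratio and the Hspb1 share given below are compared between libraries, and their size does not rank the genes.

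**Figure D1:**
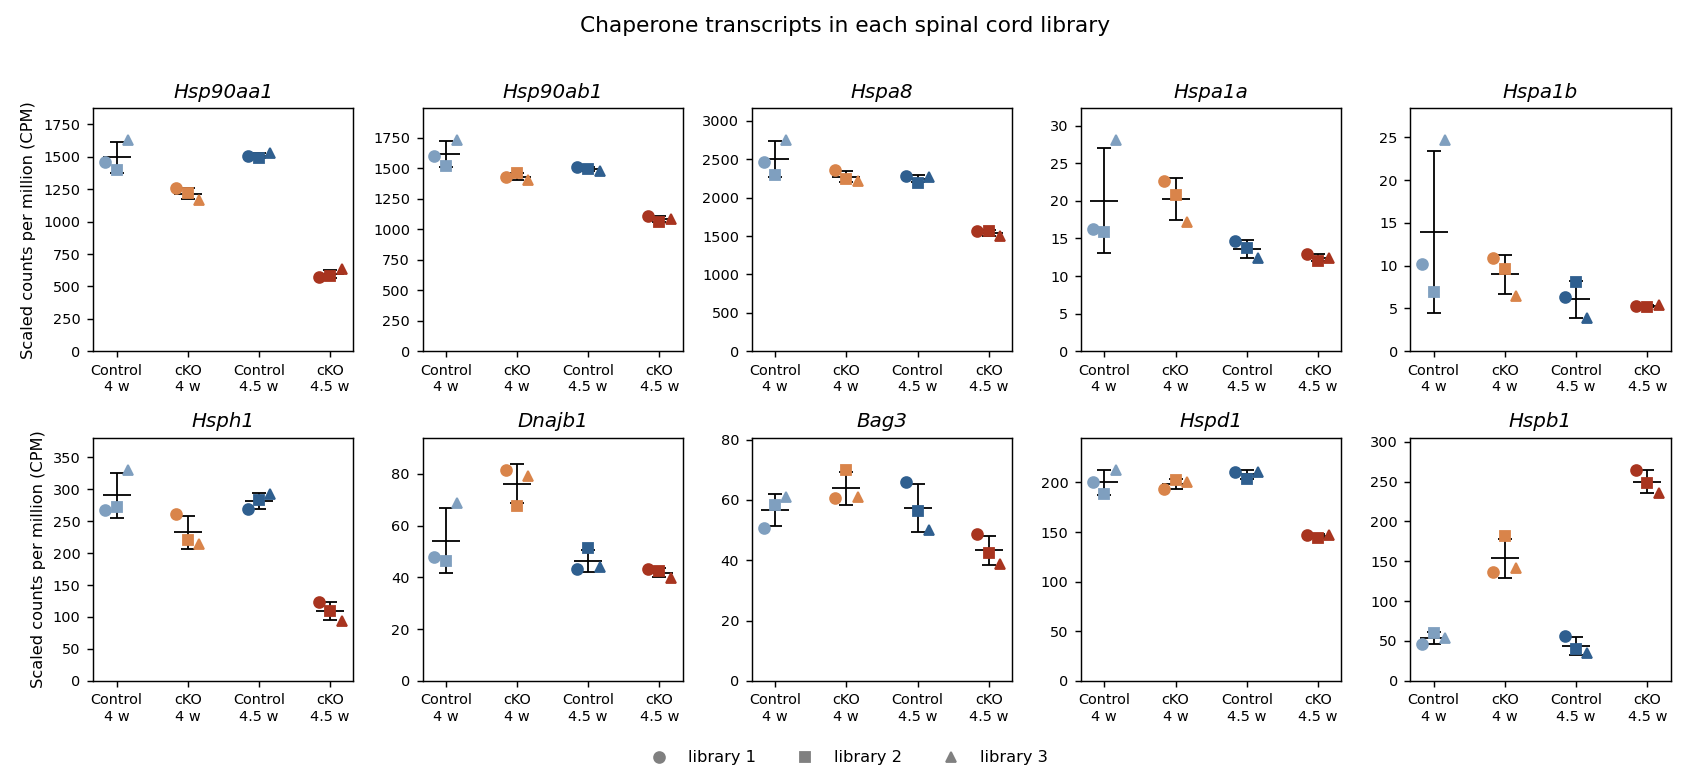
Level of each chaperone transcript in each of the 12 libraries (y axis, CPM from 0; x axis, the 4 groups; w, weeks after tamoxifen). Points are libraries with the number shown by the symbol, and bars are the mean and SD of 3 libraries; Hspb1 is higher in the cKO-labelled libraries at both times, and 7 others (Dnajb1, which was not called, among them) lie below their controls at 4.5 weeks without overlap, as did 35.6% of all 19278 tested genes, while 36.8% lay above.

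At 4 weeks 2 of the 10 transcripts rose and 3 fell in the cKO-labelled libraries, and at 4.5 weeks 1 rose and 6 fell (edgeR quasi-likelihood test, adjusted p below 0.05 over all genes). Of all 19278 tested genes, 20.1% were higher and 17.2% were lower at 4 weeks, and 33.3% were higher and 32.6% were lower at 4.5 weeks, so a member's call was not rare in itself at either time. The median log2 fold change of the members was -0.08 at 4 weeks and -0.43 at 4.5 weeks, where the medians of all tested genes were 0.01 and 0.02. Both comparisons cover bulk tissue, in which fewer cells of a type and less RNA per cell cannot be told apart. The 4-week count is the less stable one: it was 2 of 10 (Hspb1 higher, Hsp90aa1 lower) with a sex term in the model, which leaves 1 male cKO-labelled library against 3 male controls.

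**Figure D2:**
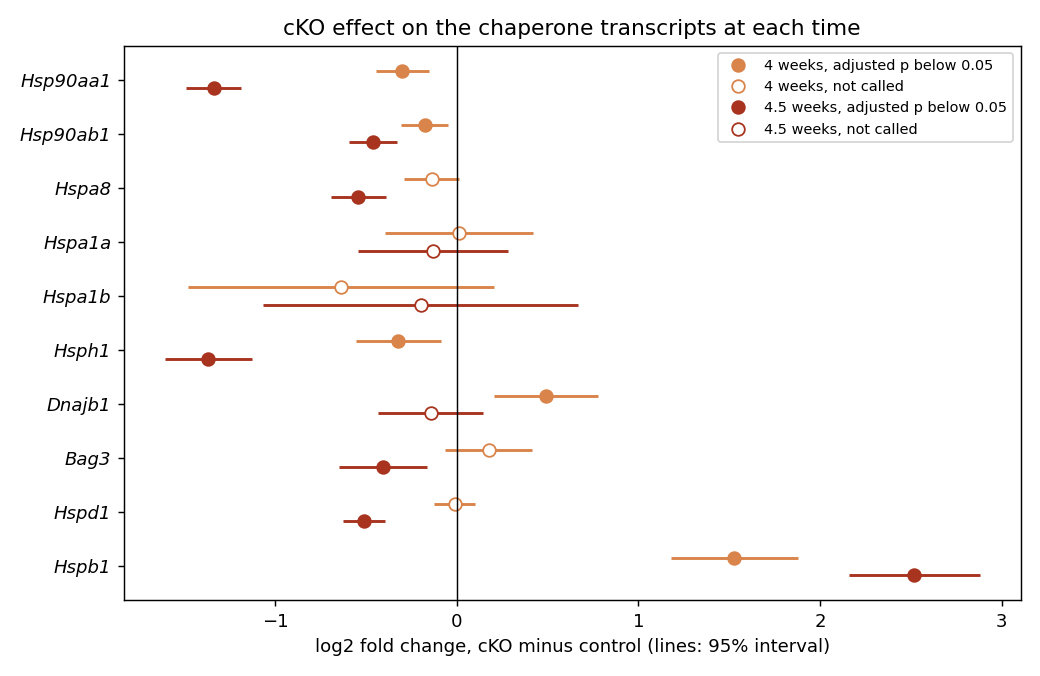
Effect of the label cKO on each transcript at 4 weeks (upper, orange) and 4.5 weeks (lower, red), as log2 fold change with its 95% interval (x axis); filled points have an adjusted p below 0.05. Hspb1 stands at 1.53 and 2.52, while Hsp90aa1 and Hsph1 lie near -0.3 at 4 weeks and below -1.3 at 4.5 weeks.

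The inducible Hsp90, Hsp90aa1 (ENSMUSG00000021270.14), fell at both times. The controls at 4 weeks held 1460, 1400 and 1630 CPM and the cKO-labelled libraries 1260, 1220 and 1170 CPM. At 4.5 weeks controls showed 1510, 1490 and 1530 CPM, and cKO-labelled ones 576, 582 and 631 CPM. The groups did not overlap at either time, and all cKO-labelled libraries at 4.5 weeks were below all those at 4 weeks. The log2 fold change was -0.30 ± 0.07 (SE, n = 3 per group, adjusted p = 0.004 by edgeR) at 4 weeks and -1.34 ± 0.07 (adjusted p = 4.3e-09) at 4.5 weeks, the latter a 2.53-fold lower level.

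Hsp90ab1 (ENSMUSG00000023944.15), the constitutive Hsp90, fell by less. Its controls showed 1600, 1520 and 1730 CPM at 4 weeks and 1510, 1490 and 1480 CPM at 4.5 weeks. The cKO-labelled libraries held 1430, 1460 and 1400 CPM at 4 weeks and 1110, 1060 and 1080 CPM at 4.5 weeks, again with no overlap with their controls. The log2 fold change was -0.18 ± 0.06 (SE, adjusted p = 0.034 by edgeR) at 4 weeks and -0.46 ± 0.06 (adjusted p = 1.7e-05) at 4.5 weeks. The 4-week call was not stable, and held in 13 of the 23 alternatives run. Its adjusted p was 0.11 with no filter on low counts, 0.079 with each time fitted alone, 0.08 with the replicate block, 0.12 with a sex term and 0.066 with controls 1 and 2 of 4.5 weeks both dropped. It was 0.072 without control library 1, 0.12 without control library 3, 0.058 and 0.11 without cKO-labelled libraries 2 and 3, and 0.054 without control library 2 of 4.5 weeks.

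The balance of the Hsp90 transcripts shifted with these falls. Hsp90aa1 CPM divided by Hsp90ab1 CPM, a ratio in which gene length cancels between libraries, was 0.928 ± 0.0152 (SD, n = 3) in the controls and 0.852 ± 0.0265 in the cKO-labelled libraries at 4 weeks. At 4.5 weeks it was 1.01 ± 0.0188 in the controls and 0.551 ± 0.0335 in the cKO-labelled libraries. The groups did not overlap at either time, and the exact 2-sided permutation p was 0.1 at each, the smallest that 3 against 3 libraries allow. Neuron marker transcripts moved beside the Hsp90 transcripts: 2 of the 6 markers were lower at 4 weeks and 6 of 6 at 4.5 weeks, and none was at 0. Their summed level was 2270 to 2380 CPM against 2720 to 2850 CPM in the controls at 4 weeks, and 697 to 989 CPM against 2880 to 3190 CPM at 4.5 weeks. Their part in the change of the Hsp90 transcripts was not tested.

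**Figure D3:**
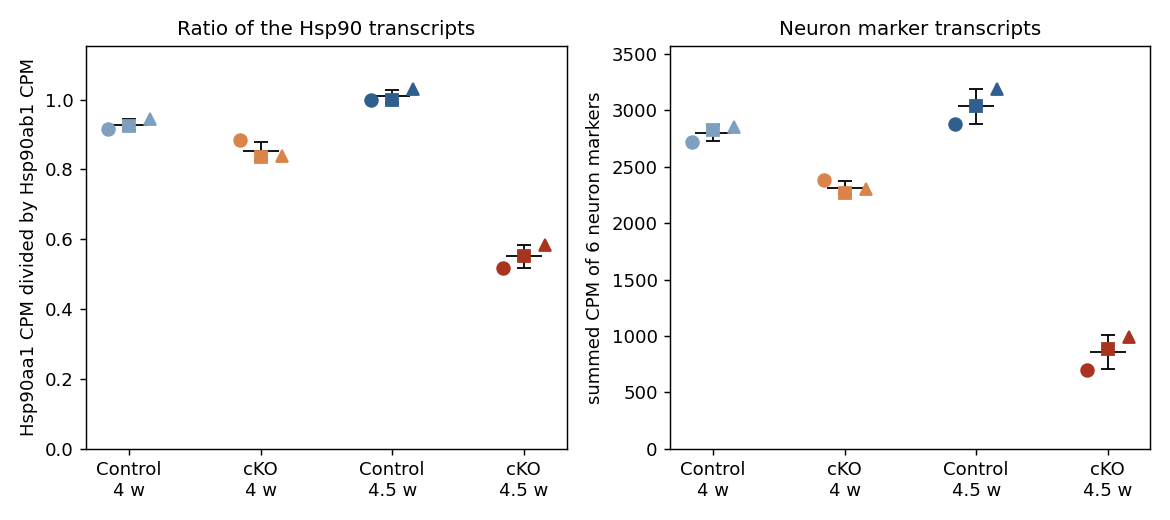
Left, Hsp90aa1 CPM divided by Hsp90ab1 CPM in each library; right, summed CPM of the 6 neuron markers (Snap25, Syt1, Rbfox3, Slc17a6, Gad1 and Chat), both from 0, with mean and SD of 3 libraries per group and symbols for library 1 (circle), 2 (square) and 3 (triangle). Both are lowest in the cKO-labelled libraries at 4.5 weeks, at 0.517 to 0.584 and at 697 to 989 CPM.

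Among the Hsp70 genes, the constitutive Hspa8 (ENSMUSG00000015656.18), whose product also uncoats clathrin vesicles, fell at 4.5 weeks. The cKO-labelled libraries then held 1570, 1560 and 1500 CPM and the controls 2280, 2190 and 2270 CPM, with no overlap (log2 fold change -0.54 ± 0.07, SE, adjusted p = 1.7e-05 by edgeR). At 4 weeks the cKO-labelled libraries held 2360, 2240 and 2220 CPM and the controls 2470, 2290 and 2750 CPM. These groups overlapped, and the log2 fold change of -0.14 (95% interval -0.291 to 0.0137, adjusted p = 0.14) was not called, although it was without control library 2 (-0.20, adjusted p = 0.049).

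The stress-inducible Hsp70 genes, Hspa1a (ENSMUSG00000091971.4) and Hspa1b (ENSMUSG00000090877.4), which are barely transcribed in many unstressed tissues, were the lowest members and were called at neither time. Hspa1a held 16.2, 15.8 and 28.1 CPM in the controls and 22.7, 20.8 and 17.2 CPM in the cKO-labelled libraries at 4 weeks, and 14.7, 13.7 and 12.4 CPM against 12.9, 12 and 12.4 CPM at 4.5 weeks. Hspa1b held 10.2, 6.95 and 24.7 CPM in the controls and 10.9, 9.56 and 6.51 CPM in the cKO-labelled libraries at 4 weeks, and 6.33, 8.12 and 3.83 CPM against 5.31, 5.17 and 5.39 CPM at 4.5 weeks. The groups overlapped in every case, and control library 3 of 4 weeks was the highest of all 12 libraries for both genes. The log2 fold changes at 4 weeks were 0.01 for Hspa1a (95% interval -0.394 to 0.42, adjusted p = 0.97 by edgeR) and -0.64 for Hspa1b (-1.48 to 0.203, adjusted p = 0.22). At 4.5 weeks they were -0.13 (-0.546 to 0.282, adjusted p = 0.56) and -0.20 (-1.07 to 0.667, adjusted p = 0.68). Changes anywhere within these intervals remain compatible with the data.

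Hspa1a and Hspa1b are near-identical copies, and 47.1% of the 100-base stretches of Hspa1a transcripts also occur in Hspa1b, so reads can be split between them by the counting. Both had estimated counts that were not whole in all 12 libraries. So had Hspa8 and Hspb1, and Hsp90aa1 and Hspd1 had them in 11, so this trait is not particular to the copies. Hspa1b took 23.6% to 46.8% of the sum of Hspa1a and Hspa1b. Summed, they held 26.5, 22.7 and 52.8 CPM in the controls and 33.6, 30.3 and 23.7 CPM in the cKO-labelled libraries at 4 weeks (difference of means -4.78 CPM, exact 2-sided permutation p = 0.9, n = 3 per group). At 4.5 weeks the sums were 21.1, 21.9 and 16.2 CPM and 18.2, 17.2 and 17.8 CPM (difference -2.0 CPM, exact permutation p = 0.4), where the smallest possible p is 0.1. Control library 3 decided the sign at 4 weeks, since without it the difference was 4.62 CPM. The annotation also places 564 exon bases of Hspa1a opposite another gene, Gm20481, and the library kit does not mark strand.

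Hsph1 (ENSMUSG00000029657.16), which encodes Hsp105, a nucleotide exchange factor for Hsp70, fell at 4.5 weeks by about as much as Hsp90aa1 on the log2 scale. At 4.5 weeks controls showed 269, 284 and 293 CPM, and cKO-labelled ones 123, 110 and 94.3 CPM, a 2.58-fold lower level (log2 fold change -1.37 ± 0.11, SE, adjusted p = 2e-07 by edgeR). At 4 weeks controls showed 268, 273 and 331 CPM, and cKO-labelled ones 262, 221 and 215 CPM. These groups also did not overlap, with a gap that is small beside the range of either group, and the log2 fold change was -0.32 ± 0.11 (adjusted p = 0.032). The 4-week call held in 17 of the 23 alternatives run. It was lost without control library 3 (-0.22, adjusted p = 0.15) and without cKO-labelled libraries 2 or 3 (adjusted p = 0.11 and 0.12). The replicate block (adjusted p = 0.071) and a sex term (adjusted p = 0.064) also lost it. So did dropping controls 1 and 2 of 4.5 weeks together.

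Dnajb1 (ENSMUSG00000005483.11), the J-protein Hsp40 that delivers unfolded proteins to Hsp70, rose at 4 weeks and did not pass the test at 4.5 weeks. At 4 weeks the controls showed 47.8, 46.3 and 68.6 CPM and the cKO-labelled libraries 81.7, 67.7 and 79.3 CPM (log2 fold change 0.49 ± 0.13, SE, adjusted p = 0.011 by edgeR). Control library 3 lay above cKO-labelled library 2, so the groups overlapped. Without control library 3 the log2 fold change was 0.70. The adjusted p was 0.054 without control library 1 or with a sex term, and 0.05 (just above the threshold) without control library 2. At 4.5 weeks the controls showed 43.3, 51.2 and 44.2 CPM and the cKO-labelled libraries 43.2, 42.6 and 39.7 CPM, which is lower with no overlap but within -0.433 to 0.144 on the log2 scale (95% interval, adjusted p = 0.36).

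Bag3 (ENSMUSG00000030847.9), a co-chaperone that links Hsp70 and small heat shock proteins to selective autophagy, fell at 4.5 weeks. The controls showed 66.0, 56.2 and 50.1 CPM and the cKO-labelled libraries 48.6, 42.4 and 38.9 CPM, with no overlap (log2 fold change -0.41 ± 0.11, SE, adjusted p = 0.0062 by edgeR). With control libraries 1 and 2, which held ganglion and muscle transcripts, both left out, it was -0.22 (adjusted p = 0.21), against a single remaining control of 50.1 CPM. At 4 weeks the values were 50.8, 58.2 and 60.9 CPM in the controls and 60.6, 70.1 and 60.9 CPM in the cKO-labelled libraries, which overlapped (0.17, 95% interval -0.0673 to 0.416, adjusted p = 0.25).

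Hspb1 (ENSMUSG00000004951.11), the small heat shock protein Hsp27, was the only member to rise at 4.5 weeks and rose at both times. At 4 weeks the controls showed 45.8, 60.4 and 53.8 CPM and the cKO-labelled libraries 137, 182 and 142 CPM. At 4.5 weeks the controls showed 56.0, 40.1 and 35.0 CPM and the cKO-labelled libraries 265, 248 and 236 CPM. No control reached any cKO-labelled library, and the 4.5-week cKO-labelled libraries were all above those of 4 weeks. Hspb1 was 2.88-fold higher at 4 weeks (log2 fold change 1.53 ± 0.16, SE, adjusted p = 1.7e-05 by edgeR) and 5.72-fold higher at 4.5 weeks (2.52 ± 0.17, adjusted p = 3.6e-08). Its share of the 10 members' summed CPM was 0.591% to 1.03% in the 6 controls, 2.36% to 3.2% in the cKO-labelled libraries at 4 weeks and 6.24% to 6.8% at 4.5 weeks. The rise at 4 weeks was present in the male cKO-labelled library, at 142 CPM, and without control library 1 of 4.5 weeks, the one with ganglion transcripts and the highest Hspb1 of its group, the 4.5-week value was 2.73.

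The 5 genes whose log2 CPM followed Hspb1 most closely over the 12 libraries were Arap1, Tmem140, Vim, Clic1 and Tec (Pearson r 0.993, 0.993, 0.993, 0.99 and 0.99). The libraries fall into separate groups and share their scaling, so these r values describe genes with steps of the same order between groups. Vim, which encodes the intermediate filament vimentin, held means of 111 and 535 CPM at 4 weeks and 96.0 and 1030 CPM at 4.5 weeks in the controls and the cKO-labelled libraries. For the summed Hspa1a and Hspa1b the closest were Mtrf1l, Ahsa2, Arntl, Mkks and Commd6 (r 0.929, 0.86, 0.856, 0.822 and 0.822), none of which was called at either time. Ahsa2, related to an activator of Hsp90, held group means of 40.1 and 33.8 CPM at 4 weeks and 30.2 and 26.6 CPM at 4.5 weeks.

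Hspd1 (ENSMUSG00000025980.15), the chaperonin Hsp60 of the mitochondrial matrix, was nearly flat at 4 weeks and fell at 4.5 weeks. Its controls showed 200, 188 and 213 CPM and the cKO-labelled libraries 193, 202 and 200 CPM at 4 weeks, overlapping (-0.01, 95% interval -0.127 to 0.102, adjusted p = 0.88 by edgeR). At 4.5 weeks controls showed 211, 203 and 211 CPM, and cKO-labelled ones 147, 144 and 147 CPM. These groups were far apart compared with their spread, with a log2 fold change of -0.51 ± 0.05 (SE, adjusted p = 2.1e-06).

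The effect differed between the times for 8 of the 10 transcripts, 1 of them more positive (Hspb1) and 7 more negative at 4.5 weeks, where 18.7% of all tested genes were called more positive and 21.9% more negative. This difference uses the same libraries as the effects at each time. The values were near 1 in size for Hsph1 (-1.05 ± 0.15 on the log2 scale, SE, adjusted p = 0.00014 by edgeR), Hsp90aa1 (-1.04 ± 0.10, adjusted p = 4.4e-06) and Hspb1 (0.99 ± 0.23, adjusted p = 0.0035). Dnajb1 (-0.64), Bag3 (-0.58), Hspd1 (-0.50), Hspa8 (-0.41) and Hsp90ab1 (-0.29) followed, with adjusted p between 0.00017 and 0.017. Hspa1a (-0.15, 95% interval -0.725 to 0.435, adjusted p = 0.71) and Hspa1b (0.44, -0.768 to 1.65, adjusted p = 0.57) were not called, but Hspa1a was without control library 3 of 4 weeks (-0.47, adjusted p = 0.036). When control libraries 1 and 2 of 4.5 weeks were both left out, 5 of the 8 differences were called, and those of Hsp90ab1, Dnajb1 and Bag3 were not (adjusted p = 0.11, 0.085 and 0.11). With a sex term 6 were called, and Hsp90ab1 (-0.26, adjusted p = 0.099) and Bag3 (-0.51, adjusted p = 0.068) were not.

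**Figure D4:**
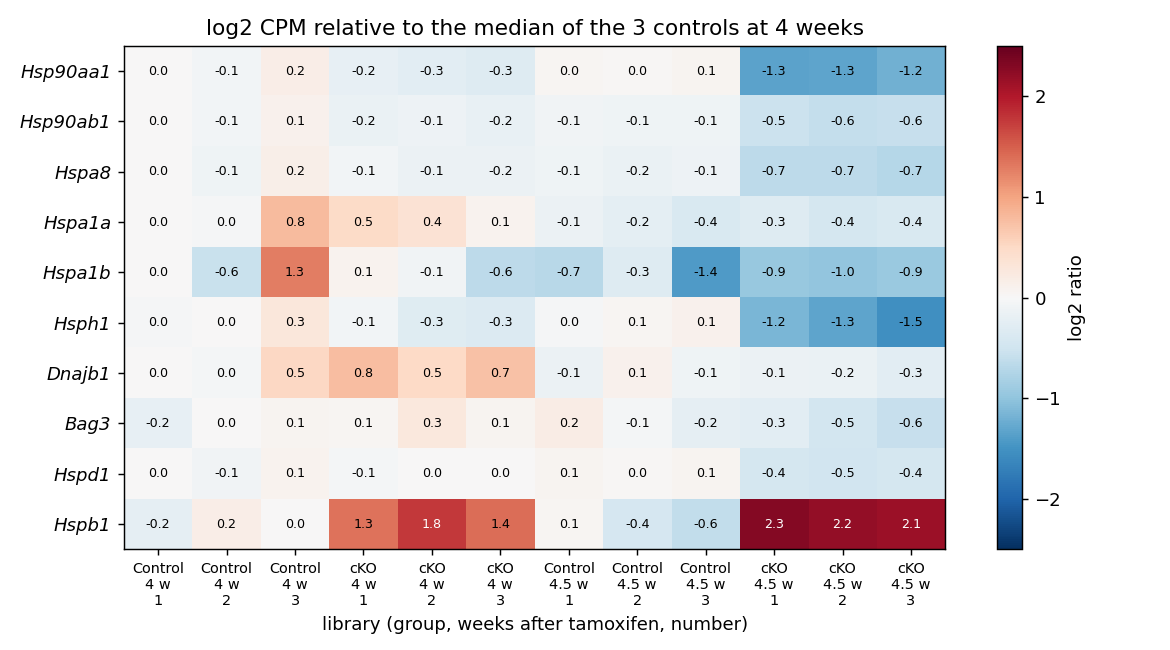
Level of each transcript in each library as the log2 ratio to the median of the 3 controls at 4 weeks (colour and printed value; rows are genes, columns are libraries by group and number). Control library 3 of 4 weeks is raised for Hspa1a (0.8), Hspa1b (1.3) and Dnajb1 (0.5), and the 3 cKO-labelled libraries at 4.5 weeks are raised for Hspb1 alone.

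Between the control groups, 0 of the 10 transcripts were called by edgeR, against 9.53% of all tested genes higher and 7.21% lower at 4.5 than at 4 weeks. The lowest adjusted p by edgeR were those of Hspa1b (-1.20 ± 0.39, SE, adjusted p = 0.055), Hspa1a (-0.56 ± 0.19, adjusted p = 0.062) and Hspa8 (-0.16 ± 0.07, adjusted p = 0.15). DESeq2's Wald test called 2, Hspa1a and Hspa1b (adjusted p = 0.02 and 0.047). These groups also differed in sex, male at 4 weeks and female at 4.5 weeks, so time and sex cannot be told apart. Control library 3 of 4 weeks was the highest of its group for 9 of the 10 members, all but Hspb1, for 23 of 52 other chaperone genes and for 37.8% of all tested genes. Without it the Hspa1a and Hspa1b differences were -0.23 and -0.50. Its summed immediate early gene transcripts, 134 CPM, lay within those of control libraries 1 and 2, 125 and 135 CPM, and the part of this library in the members' values beyond the results without it was not tested.

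Other cell types moved with the same labels. All 8 microglia markers were higher at 4.5 weeks and 7 of 8 at 4 weeks, and their summed level was 891 to 1420 CPM against 393 to 401 CPM at 4 weeks and 5030 to 5510 CPM against 362 to 374 CPM at 4.5 weeks. Of the 6 astrocyte markers 5 were lower at each time, while Gfap, the filament protein of reactive astrocytes, was higher at 4.5 weeks (3200, 2940 and 2880 CPM against 2460, 2420 and 2080 CPM). The astrocyte sum was 3450 to 5600 CPM against 6750 to 7180 CPM at 4 weeks and 5310 to 5710 CPM against 7390 to 7560 CPM at 4.5 weeks. Endothelial markers summed to 94.6 to 137 CPM against 117 to 152 CPM at 4 weeks, with 0 of 4 called, and to 162 to 223 CPM against 129 to 143 CPM at 4.5 weeks, with 2 of 4 higher. The 8 sensory ganglion markers summed to 20.7 to 30.3 CPM against 2.2 to 4.02 CPM at 4 weeks, where Avil and Trpv1 were higher, while Scn10a was at most 0.219 CPM and Mrgprd at most 0.0497 CPM in all 6 cKO-labelled libraries. Immediate early gene transcripts, which neuronal activity and handling induce, summed to 241 to 343 CPM against 125 to 135 CPM at 4 weeks (4 of 7 higher) and to 220 to 241 CPM against 106 to 119 CPM at 4.5 weeks (5 of 7 higher). None of the listed microglia, astrocyte, endothelial or neuron markers was at 0 in all libraries. The part of any of these cell types or of the immediate early genes in the levels of the chaperone transcripts was not tested.

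The other chaperone genes, 52 in 7 lists and all tested, gave 10 rises and 9 falls at 4 weeks and 8 rises and 29 falls at 4.5 weeks; their median log2 fold changes were 0.03 and -0.20. That is 19.2% higher and 17.3% lower at 4 weeks, near the 20.1% and 17.2% of all tested genes, and 15.4% higher and 55.8% lower at 4.5 weeks, against 33.3% and 32.6%. With a sex term the 4-week counts were 5 and 5, and without control library 3 they were 8 and 5. Of the heat shock factors and their binding protein, Hsf1, the main activator of these genes, was 29.9, 30.0 and 31.7 CPM in the controls and 31.5, 33.6 and 29.8 CPM in the cKO-labelled libraries at 4 weeks, and 22.6, 22.4 and 23.7 CPM against 27.3, 27.4 and 20.9 CPM at 4.5 weeks (adjusted p = 0.72 and 0.22 by edgeR). Of this list of 4, Hsf4 alone was called in these comparisons, lower at 4.5 weeks (-0.91 ± 0.09, SE, adjusted p = 2.2e-06). Its controls showed 22.0, 23.7 and 28.3 CPM and the cKO-labelled libraries 12.5, 13.8 and 13.2 CPM. Hsf1 was lower in the controls of 4.5 weeks than in those of 4 weeks (-0.41 ± 0.09, SE, adjusted p = 0.012 by edgeR). These control groups also differed in sex.

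Most of the listed partners of Hsp70 and Hsp90 fell at 4.5 weeks. Of 8 other cytosolic J-proteins 1 rose and 3 fell at 4 weeks and 6 fell at 4.5 weeks, led by Dnajb2 (-0.39 and -1.08), a J-protein of neurons, and Dnaja1 (-0.22 and -0.72), while Dnajb5 was the rise at 4 weeks (0.32). Among 15 co-chaperones 3 fell at 4 weeks, and 1 rose and 11 fell at 4.5 weeks. Stip1, which bridges Hsp70 and Hsp90, went from 233, 231 and 252 CPM in the controls to 109, 108 and 109 CPM at 4.5 weeks (-1.14 ± 0.06, SE, adjusted p = 3.1e-09 by edgeR). Fkbp4, an immunophilin partner of Hsp90, fell at both times (-0.28 and -1.12), and Bag4 fell by 0.24 at 4 weeks. Fkbp5, an Hsp90 partner of steroid receptors that glucocorticoids induce, was the single rise, from 30.1, 26.9 and 31.0 CPM to 168, 156 and 199 CPM (2.57 ± 0.16, adjusted p = 1.8e-08). Of the 4 other Hsp70 and Hsp110 genes, Hspa4l and Hspa4, relatives of Hsph1, fell at both times (-0.40 and -1.65 for Hspa4l, -0.25 and -0.50 for Hspa4), while Hspa14 rose at 4 weeks and Hspa2 at 4.5 weeks (0.25 and 0.34).

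The small heat shock proteins were the only list of the 7 with no fall at either time. Of 6 genes other than Hspb1, 2 rose at 4 weeks and 4 at 4.5 weeks, with medians of 0.25 and 0.69. Hspb8, a partner of Bag3, held 62.3, 71.2 and 69.5 CPM in the controls and 108, 129 and 114 CPM in the cKO-labelled libraries at 4 weeks, and 81.7, 67.8 and 56.4 CPM against 106, 107 and 105 CPM at 4.5 weeks (log2 fold changes 0.79 and 0.63). Cryab, the lens and glial chaperone alpha B-crystallin, rose at 4.5 weeks (0.75 ± 0.08, SE, adjusted p = 4.4e-06 by edgeR), with a difference of effects of 0.70 (adjusted p = 0.00041). It held 238, 225 and 204 CPM in those controls and 395, 362 and 366 CPM in the cKO-labelled libraries, and its controls were lower at 4.5 than at 4 weeks (-0.61, adjusted p = 0.0018). Hspb3 and Hspb6 made up the 4 rises at 4.5 weeks, and Hspb2 (0.52) and Hspb7 (0.86) did not pass the test. Hspb3 was near the floor, at 0.226, 0.259 and 0.0895 CPM in the controls and 1.34, 1.18 and 1.09 CPM in the cKO-labelled libraries. Hspb7 held 0.502, 3.27 and 0.425 CPM against 1.99, 3.31 and 2.27 CPM, highest among controls in library 2, the one with muscle transcripts.

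Of the 7 genes listed as other mitochondrial chaperones, 3 rose and 1 fell at 4 weeks, and 1 rose and 4 fell at 4.5 weeks. With a sex term 2 rose and 1 fell at 4 weeks. Over all tested genes 20.1% were higher and 17.2% lower at 4 weeks, and 33.3% and 32.6% at 4.5 weeks. Grpel1, a nucleotide exchange factor of mitochondrial Hsp70, held 45.9, 45.3 and 46.2 CPM in the controls and 60.7, 60.1 and 61.9 CPM in the cKO-labelled libraries at 4 weeks, and fell at 4.5 weeks (0.41 and -0.26, difference of effects -0.67, adjusted p = 2.1e-05 by edgeR). Hspa9, that Hsp70 itself, rose at 4 weeks (0.33 ± 0.05, SE, adjusted p = 0.00037). Trap1, the mitochondrial Hsp90, fell at both times (-0.28 and -0.62), and Dnaja3, a mitochondrial J-protein, fell at 4.5 weeks (-0.53). Hspe1, which caps the Hspd1 ring, rose by 0.16 at each time, where Hspd1 itself stood at -0.01 and -0.51. Of the 8 subunits of TRiC, the chaperonin that folds actin and tubulin in the cytosol, 3 rose at 4 weeks (1 with a sex term), and 1 rose and 5 fell at 4.5 weeks, with Tcp1 at 0.20 (adjusted p = 0.0072) and Cct4 at 0.19 at the earlier time and Cct8 at -0.49 (adjusted p = 2.6e-06) and Cct6a at -0.29 at the later. Between the control groups 2 of the 52 genes were higher and 13 lower at 4.5 weeks. That is 3.85% and 25.0%, against 9.53% and 7.21% of all tested genes. The called chaperone genes included Hsf1 (-0.41), Hsbp1 (-0.35), Hspa4l (0.43), Dnajb2 (-0.20), Ahsa1 (-0.35), Cryab (-0.61), Hspe1 (-0.32) and Cct5 (-0.18). With a sex term 0 were called, but sex and time cannot be told apart between these groups.

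**Figure D5:**
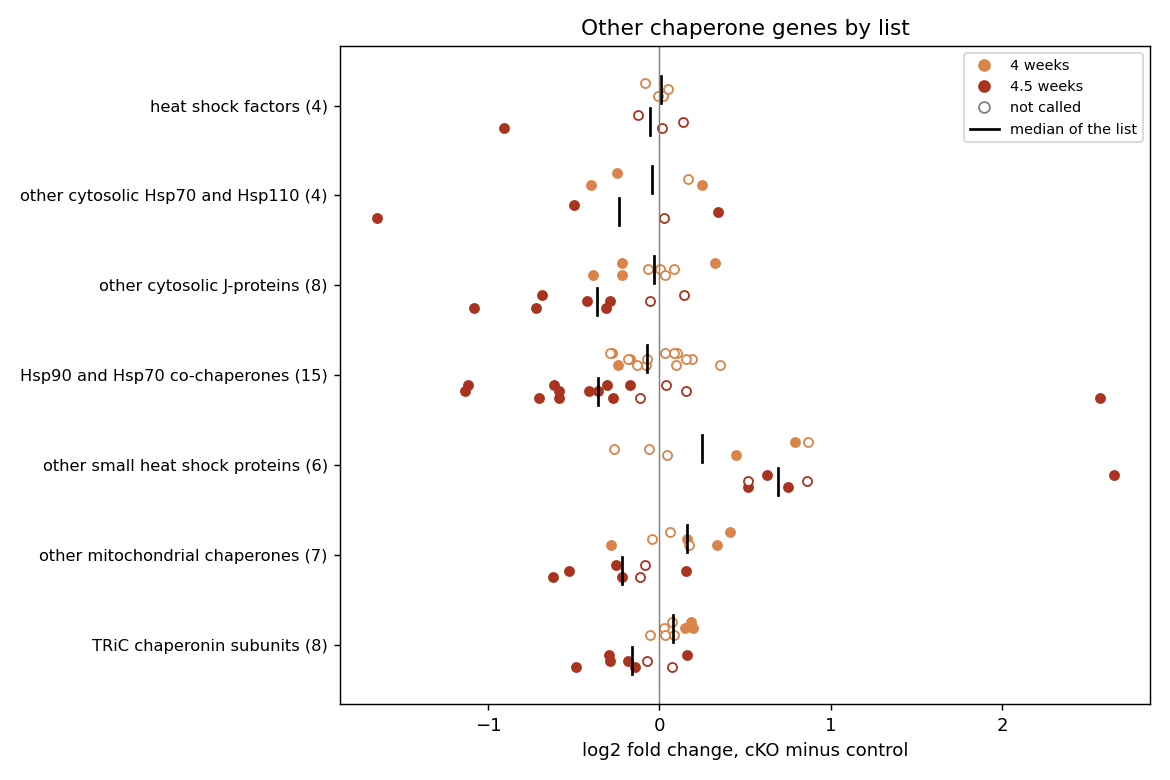
Effect of the label cKO on each of the 52 other chaperone genes at 4 weeks (orange) and 4.5 weeks (red), as log2 fold change (x axis), by list with the number of genes in parentheses; filled points have an adjusted p below 0.05 and black ticks mark medians. At 4.5 weeks the median is 0.69 for the small heat shock proteins and below 0 for the other 6 lists.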

How the data were processed

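For each time the authors deposited a table of estimated counts by gene, without scaling for depth or gene length. The submitters' processing notes name STAR, RSEM and mm39; versions, parameters and the annotation release are not given in the sources used here. Counts were rounded to whole numbers and fitted in R 4.3.3 with edgeR 4.0.16 (TMM scaling, edgeR's filter on low counts over 4 groups, 1 mean per group, quasi-likelihood F tests, Benjamini-Hochberg adjustment over 19278 genes). CPM values use the same scaling. The sum of Hspa1a and Hspa1b and the ratio of Hsp90aa1 to Hsp90ab1 were compared by exact permutation tests. The summed levels of the marker lists were not tested. Intervals are 95% intervals of the fit. The test was also run on simulated counts with far fewer changed genes than were called here. That run does not cover the setting of these data. Alternatives used DESeq2 1.42.0, limma 3.58.1, other scalings and filters, a replicate block, a sex term and libraries left out. Exon lengths came from GENCODE M21 and promoters from RefSeq, both on GRCm38. The labels call the 3 libraries of each group independent biological replicates. The members and gene lists were chosen with earlier results of these data known. From each other list, the text names the 2 called genes with the smallest p at each time, at most 1 for each other contrast, and for likeness the 5 genes with the highest Pearson r (mean log2 CPM at least 1). Hsf1, Hspa14, Hspa2, Hspb3, Hspb2, Hspb7, Hspe1 and the cell type markers were named besides, after their values were seen.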

Additional observations from a re-analysis of the deposited data

Results flagged for a closer look

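For 8 members the effect of the label cKO differed between 4 and 4.5 weeks by the edgeR test of the difference itself (log2 scale, 4.5 minus 4 weeks): Hsp90aa1 -1.037, Hsph1 -1.046, Dnajb1 -0.635, Bag3 -0.581, Hspd1 -0.501, Hspa8 -0.405, Hsp90ab1 -0.285 and Hspb1 0.988. Hspb1 alone of these was more positive at 4.5 weeks.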

How the results depend on the processing

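The count of members called was 7 of 10 at 4.5 weeks, 6 to 7 under every alternative run, and 7 without each single library. At 4 weeks it was 5, and 3 with the replicate block, 2 with a sex term, 3 when control libraries 1 and 2 of 4.5 weeks were both dropped, and 3 to 5 leaving out single libraries. The difference of effects gave 8, 5 with those 2 controls left out, 6 with the sex term, 7 with no filter on low counts (Hsp90ab1 not called, adjusted p = 0.062), and 8 to 9 leaving out single libraries. Between the control groups it was 0, 2 with no filter on low counts, upper quartile scaling or DESeq2's Wald test, and 0 to 2 leaving out single libraries. Same-numbered libraries did not clearly deviate together (correlations -0.25 to 0.0866). With 3 libraries per group this cannot show whether the numbers pair animals, and the labels name no shared litter or day. The replicate block changed no other count of members by over 1.5 times. The sex term left 4548 of 7179 genes called at 4 weeks and 0 of 3227 between the control groups. It rests on the cKO-labelled libraries of 4 weeks, the only group with both sexes. The controls were male at 4 weeks and female at 4.5 weeks, so that 0 cannot separate sex from time. All libraries of 4.5 weeks were female, so the sex term could hardly change the effects at 4.5 weeks. Leaving out a library of 4 weeks could change those effects only through the filter, scaling and spread that all libraries share. Between the control groups the replicate block gave 2145 and leaving out single libraries 1313 to 3773. Signs changed only for values not called. At 4 weeks Hspa1a was -0.002 with DESeq2's size factors, -0.003 with its Wald test and -0.22 with the sex term. Leaving out single libraries gave -0.133 to 0.337 for it (below 0 without control library 1 or 2 or cKO library 1 or 2), -0.961 to 0.059 for Hspa1b and -0.057 to 0.033 for Hspd1, the last 2 above 0 without control library 3. Without that library Hspa1a and Hspa1b in 1 row (chosen after seeing the data) gave 0.246, with a difference of effects of -0.403. It also set the sign of their summed difference, which ranged from -10.4 to 4.62 CPM at 4 weeks and from -3.74 to -0.926 CPM at 4.5 weeks. Hspa1b at 4.5 weeks was 0.457 with control libraries 1 and 2 both dropped and -0.452 to 0.059 leaving out single libraries, highest without control library 2. The difference of effects was 0.088 for Hspa1a with the sex term, and -0.264 (without control library 3 of 4 weeks) to 0.756 for Hspa1b. Between the control groups Hsp90aa1 was -0.028 with upper quartile scaling, -0.07 with the sex term and -0.037 to 0.074 leaving out single libraries; Bag3 was -0.015, -0.084 and -0.091 to 0.109, and -0.177 with both controls dropped; Hsph1 was 0.01 with both dropped and -0.1 to 0.059. The cause of these changes was not tested. Hspa1b had the fewest counts of the members, 171 to 965 per library.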
